A study of Bos taurus with 18 samples.

Results

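F1 hybrid cattle were compared with the mean of both parental breeds across the leukocyte transcriptome, with 18 of the 18 samples of the series. These were 6 F1 samples set against 12 parental samples, all from females. The parental groups were 6 Red Angus and 6 Droughtmaster, and the labels give the hybrids' breed as Red Angus crossed with Droughtmaster. Red Angus is a taurine (Bos taurus) beef breed of temperate origin, and Droughtmaster is a composite breed for the tropics with both Bos indicus and taurine forebears. All 3 groups carried the label heat stress, so every value describes animals under that condition and no unstressed animal was analysed here. The cattle were described as healthy, and the material was the white cell layer of EDTA blood from the tail vein. The labels state neither age nor parentage, so whether the sampled parental animals are the parents of the sampled hybrids is not known from them. The members were the rows of the count table that carry an Ensembl identifier, 27607 of 30162 features, of which 13439 passed the filter on low counts and were tested.

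In a hybrid whose parental alleles each keep their own output, the amount of a transcript is the arithmetic mean of the amounts in both parents. This is the linear mid-parent value. Models of RNA counts usually work with log ratios, and a contrast of log values sets the hybrid against the geometric mean of the parents, the log-scale mid-parent value. The arithmetic mean is never below the geometric mean, and they separate as the parents move apart. A hybrid at neither value can resemble a single parent, which is called dominance, or lie outside both parents, which is called over- or underdominance. Buffy-coat RNA comes from a mixture of neutrophils, lymphocytes, monocytes and other cells, so fewer cells of a type and less RNA per cell cannot be told apart in these bulk samples.

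Libraries held between 11639027 and 24117615 counts, from 16459262 to 24117615 in Red Angus, 14778379 to 21889675 in the F1 and 11639027 to 18551945 in Droughtmaster. A single feature took 44.6% of the counts of Droughtmaster replicate 3 and at most 0.410% of any other library, so the main results below are also given without that library. The files do not pair identifiers with gene names (0 of 27607 matched a symbol). The labelled cell type was therefore not checked against marker genes, and no gene list could be described. Each library has its own identifier, but the labels do not say in words that each came from a separate animal. The p-values therefore measure the spread between these libraries. Where values of single hybrids or parents are given below, each stands for a library.

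No gene passed the test for a departure from the linear mid-parent value in F1 leukocytes. The null hypothesis that the F1 mean equals the arithmetic mean of the parental means was tested by a quasi-likelihood ratio test built on edgeR's fit, with Benjamini-Hochberg adjustment. It called 0 of 13439 genes at an adjusted p under 0.05 (0% of those tested), and the smallest adjusted p was 0.123 (0.219 without Droughtmaster replicate 3). At an unadjusted p under 0.05, reached by 6.44% of genes, the F1 lay below the linear mid-parent value in 678 genes (5.05% of those tested) and above it in 188 (1.40%). Without Droughtmaster replicate 3 the test again called 0 genes, with 535 genes (3.91%) below and 222 (1.62%) above at that unadjusted level, 5.53% in all. The absence of calls was not uniform over libraries and tools. Without Droughtmaster replicate 4 the test called 16 genes, all 16 with the F1 lower, and without F1 replicate 5 it called 1 gene, also with the F1 lower. A Wald test on the same fit called 4 genes, all 4 with the F1 lower, and limma on CPM (counts scaled to a common library size) divided by each gene's mean called 0, with 623 at an unadjusted p under 0.05, of which 324 had the F1 lower.

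The log-scale mid-parent value gave the same number of calls. edgeR's quasi-likelihood test of F1 minus the mean of both parents on the log scale called 0 of 13439 genes (0%), with a smallest adjusted p of 0.384. At an unadjusted p under 0.05, reached by 5.82% of genes, 521 (3.88%) had the F1 lower and 261 (1.94%) higher. Without Droughtmaster replicate 3 edgeR again called 0 genes, with 411 (3.01%) lower and 287 (2.10%) higher, 5.10% in all. DESeq2's Wald test of that contrast called 48 genes, 9 with the F1 higher and 39 lower, and had 927 genes at an unadjusted p under 0.05. All 48 also had an unadjusted p under 0.05 by edgeR. In 5 of the 48 the library with the highest value was Droughtmaster replicate 3.

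The choice of the mid-parent value moved genes in 1 direction only, from "lower" to "not different" or from "not different" to "higher". The unadjusted lists shared 709 genes, which is 81.9% of the linear list and 90.7% of the log-scale list. All 157 genes found only against the linear value had the F1 lower, and all 73 found only against the log-scale value had the F1 higher. The share with the F1 lower was 78.3% of the 866 genes in the linear list and 66.6% of the 782 in the log-scale list. The direction of this shift is fixed by the order of the arithmetic and geometric means, which came from the same libraries.

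Precision set what an absence of calls could show. The median standard error of the log2 ratio of F1 to linear mid-parent value was 0.329. The 95% interval of that ratio (Wald, not adjusted for the number of genes) lay within 1.5-fold in either direction for 1926 genes, or 14.3%. It lay within 2-fold for 7763 genes (57.8%) and within 4-fold for 12437 genes (92.5%). For the other genes a departure of that size was not excluded by these libraries. Estimates of a departure of at least 2-fold were found for 632 genes with the F1 lower and 60 with the F1 higher, and of at least 4-fold for 130 and 1. When Droughtmaster replicate 3 was left out, 84 genes lay at least 4-fold lower and 4 higher, and 95 at least 2-fold higher.

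For the median gene the F1 lay close to both mid-parent values. The scaling of the libraries (TMM) assumes that most genes do not differ between them, which by itself favours such a median. The F1 mean was below the linear mid-parent value in 7707 of 13439 genes (57.3%) and below the log-scale value in 7209 (53.6%), and 498 genes (3.71%) lay between both values. The median log2 ratio to the linear value was -0.05, with the middle 50% of genes between -0.27 and 0.13. The median ratio to the log-scale value was -0.03. Leaving out Droughtmaster replicate 3 gave medians of -0.021 and 0.0035, so that the log-scale median changed sign. The shares below were then 52.9% and 49.6%, and 856 genes lay on the other side of the linear value. When the comparison was made on the mean of log2 CPM of the single libraries, 48.3% of genes lay below the mid-parent value, and limma-trend called 0 genes with 286 higher and 414 lower at an unadjusted p under 0.05. By group means, the F1 lay between the parents in 6620 genes (49.3%), above both in 3041 (22.6%) and below both in 3778 (28.1%). Without Droughtmaster replicate 3 the genes above both parents (3753) outnumbered those below both (3582).

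Single hybrids varied in how far they lay from the mid-parent value. Over the 9674 genes averaging 5 CPM or more, the share below the linear value was 57.1%, 56.9%, 66.6%, 62.7%, 49.99% and 56.0% in F1 replicates 1 to 6. The mean was 58.2% ± 5.76 (SD, n = 6). Every hybrid but replicate 5 therefore had more genes below than above. The number of genes at least 2-fold below the linear value was 736, 2121, 876, 553, 827 and 1091 in that order, and the number at least 2-fold above it was 79, 355, 118, 36, 419 and 166. In each of the 6 hybrids more genes lay 2-fold below than 2-fold above, and F1 replicate 2 had by far the most below. All 6 were set against the same parental means, and each was a single library compared with a mean of several. No single parental library was counted in the same way, and how much this contributes was not tested.

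Genes were also grouped by abundance. Genes under 1 CPM (1113 genes) had a median log2 ratio to the linear value of -0.15, and 61.3% of them had the F1 lower. The medians were -0.08 from 1 to 10 CPM (4293 genes), -0.04 from 10 to 100 CPM (6348 genes), -0.04 from 100 to 1000 CPM (1543 genes) and -0.07 above 1000 CPM (142 genes). The share with the F1 lower lay between 56.1% and 61.3% in all 5 classes. Without Droughtmaster replicate 3 it lay between 50.4% and 60.2%, lowest from 10 to 100 CPM and highest under 1 CPM. The medians without that library were -0.16 under 1 CPM, -0.05 from 1 to 10 CPM, -0.0023 from 10 to 100 CPM, -0.011 from 100 to 1000 CPM and -0.07 above 1000 CPM, so the classes of lowest and highest abundance lay farther below the linear value than those from 10 to 1000 CPM.

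The medians were farther apart when genes were grouped by the size and direction of the parental difference. Where Droughtmaster exceeded Red Angus by more than 4-fold (log2 difference above 2, 271 genes), the median log2 ratio of F1 to linear mid-parent value was -1.59 and 96.3% of genes had the F1 lower. Between 2-fold and 4-fold (949 genes) the median was -0.58, and between a log2 difference of 0.5 and 1 (1692 genes) it was -0.23. Where the parents differed by a log2 of less than 0.5, the medians were -0.03 with Droughtmaster higher (3624 genes) and 0.00 with Droughtmaster lower (4329 genes). On the other side, with Droughtmaster lower by more than 4-fold (84 genes), the median was 0.17 and 36.9% of genes had the F1 lower. Where the parents differed by more than 4-fold, the median F1 thus lay on the Red Angus side of the linear value in both directions, and farther from it where Droughtmaster was the higher parent. This was also so without Droughtmaster replicate 3 (-1.19 and 0.22). For an F1 between the parents this log2 ratio cannot exceed 1 but has no such limit below. The distances in both directions are thus not on equal terms. Against the log-scale value the medians of these groups were -1.08 and 0.59 with all 18 libraries, and -0.70 and 0.66 without that library. For genes with Droughtmaster higher by a log2 of less than 0.5, the median without that library was 0.0067, on the Droughtmaster side. The mid-parent value and the parental difference come from the same 12 libraries, so a parental group mean raised by few libraries enters both, and how much this contributes was not tested.

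**Figure D1:**
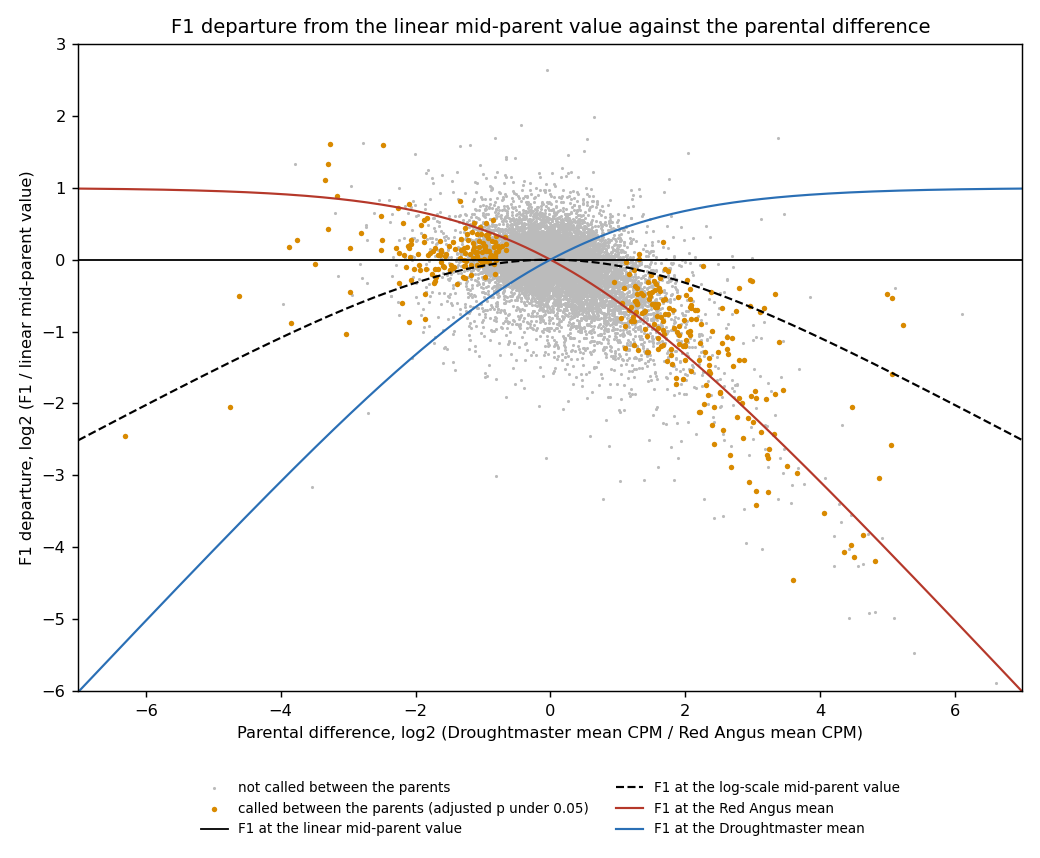
Each point is a gene, with the log2 ratio of Droughtmaster to Red Angus mean CPM on the horizontal axis and the log2 ratio of F1 to linear mid-parent value on the vertical axis (13425 genes; 14 lie outside the axes). Lines mark where a gene would lie with the F1 at the linear value, the log-scale value or either parental mean; on the right, points called between the parents (orange) gather near the Red Angus line, and on the left near the linear value.

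The distance between both mid-parent values mattered most at that edge. For the median gene the linear value was 1.01 times the log-scale value, and for 95% of genes the ratio was at most 1.15. It exceeded 1.5 in 140 genes (1.04%), of which 115 had Droughtmaster as the higher parent. In 50 of the 140 the highest of the 18 libraries was Droughtmaster replicate 3, and without that library 110 genes exceeded 1.5. Without Red Angus replicate 5, 214 did. Among the 115 genes with Droughtmaster higher, the F1 lay below the linear value in 111 and below the log-scale value in 99, and only 12 lay between both. In most of these 115 genes the F1 was below both values. The same parental libraries chose these genes and set both values. A Droughtmaster mean raised by few libraries thus enters both steps, and how much this contributes was not tested. Among the 25 genes with Droughtmaster lower, 14 had the F1 above the linear value, 7 between both values and 4 below the log-scale value. For the 85 such genes with Droughtmaster higher when replicate 3 was left out, 76 had the F1 below the linear value, 59 below the log-scale value and 17 between both.

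**Figure D2:**
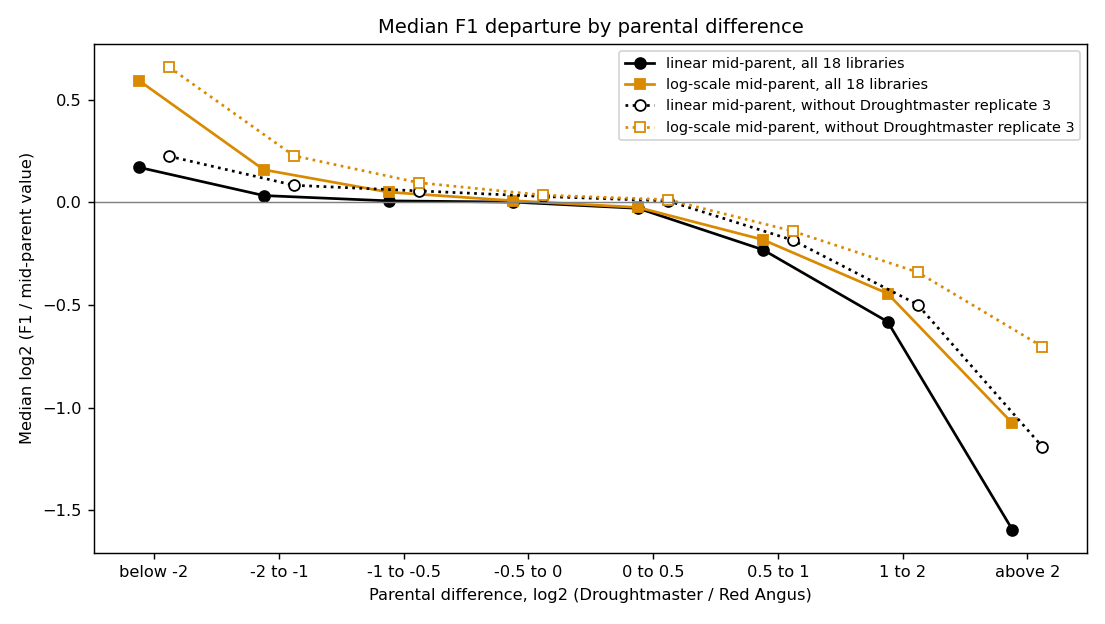
Median log2 ratio of F1 to the linear (black circles) and to the log-scale (orange squares) mid-parent value, for genes grouped by the log2 ratio of Droughtmaster to Red Angus; filled symbols use all 18 libraries and open symbols leave out Droughtmaster replicate 3. In the group with Droughtmaster more than 4-fold higher, the linear median moves from -1.59 to -1.19 and the log-scale median from -1.08 to -0.70.

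Genes that differed between the parents themselves were then taken as a set. edgeR's quasi-likelihood test called 348 of 13439 genes between Droughtmaster and Red Angus (2.59% of those tested), 191 higher (1.42%) and 157 lower (1.17%) in Droughtmaster. The position of the F1 was expressed as its distance from the mid-parent value divided by 0.5 times the parental difference, so that 0 is midway, -1 the Red Angus mean and 1 the Droughtmaster mean. The median position was -0.62 on the linear scale and -0.55 on the log scale (log scale over 347 genes with a nonzero mean in both parents). By single hybrids, the linear position was -0.75, -1.08, -0.59, -0.48, -0.60 and -0.50 in F1 replicates 1 to 6, or -0.67 ± 0.23 (SD, n = 6). All 6 hybrids thus lay on the Red Angus side of the same mid-parent values. They share the parental means and the chosen genes, so the SD holds only the spread between hybrids. Over all tested genes the median linear position was also negative, at -0.28. The same 12 parental libraries chose the 348 genes and set the position. A parental mean raised by few libraries thus enters both, and how much this contributes was not tested.

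The linear scale placed genes higher in Droughtmaster and genes lower in Droughtmaster at different points. For the 191 higher genes the median linear position was -0.88, near the Red Angus mean, and the log-scale position was -0.73. For the 157 lower genes it was -0.15 on the linear scale and -0.40 on the log scale. With Droughtmaster replicate 3 left out, the medians were -0.91 and -0.73 for the 80 higher genes then called, and -0.26 and -0.50 for the 53 lower ones. For the same 157 lower genes without that library they were -0.22 and -0.45. With all 18 libraries the medians of the 191 and the 157 genes lay 0.73 apart on the linear scale and 0.34 apart on the log scale. This difference was not tested. An F1 between the parents has a linear position nearer the lower parent than its log-scale position. Part of the wider separation on the linear scale is thus fixed by the measure. The F1 lay below the linear mid-parent value in 188 of the 191 higher genes and in 54 of the 157 lower ones. It lay below the log-scale value in 173 and 16. At an unadjusted p under 0.05, 118 of the 191 higher genes were below the linear value and 81 below the log-scale value. Among the 157 lower genes, 10 were above the linear value and 32 above the log-scale value. Over all tested genes the shares at that level were 5.05% and 3.88% below, and 1.40% and 1.94% above. The same parental libraries chose the genes and set the mid-parent values, so these counts are not independent of that choice. In 63 of the 191 the F1 mean lay below both parents, and in 12 of the 157 above both. The remaining 273 genes of the 348 had the F1 between the parents.

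The set of parental calls depended on single libraries. Without Red Angus replicate 5 the parental test called 1316 genes, and the median position in them was -0.14 on the linear and -0.15 on the log scale. Without Droughtmaster replicate 3 it called 133 genes (0.972%; 80 or 0.585% higher and 53 or 0.388% lower in Droughtmaster), with medians of -0.77 and -0.62. The number of calls also moved by over 1.5 times without Red Angus replicates 1 (145), 2 (204), 3 (152) and 4 (143), F1 replicates 3 (219) and 4 (226) and Droughtmaster replicate 6 (132). Across all 18 fits without 1 library, the median linear position stayed between -0.81 and -0.14.

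The genes with an unadjusted p under 0.05 had few sources of high values. Among the 678 genes with the F1 below the linear value, 587 had an F1 mean below both parental means and 590 had Droughtmaster above Red Angus. Over all 13439 tested genes these counts were 3778 and 6536. The highest of the 18 libraries was Droughtmaster replicate 2 in 233 of them, replicate 3 in 153 and replicate 6 in 134, together 76.7%, against 25.5% of all tested genes. Choosing genes for a low F1 by itself favours a peak in a parental library, so these shares are not on equal terms. The 678 genes had their peak mostly in 3 Droughtmaster libraries. The part of those libraries in the result was not tested beyond leaving out each in turn. The count of 678 became 575, 535 and 635 without Droughtmaster replicates 2, 3 and 6 in turn. Among the 188 genes with the F1 above the linear value, 187 had an F1 mean above both parents. The highest library was an F1 library in most of them, from 10 genes for F1 replicate 5 to 40 for F1 replicate 3. Choosing genes for a high F1 favours such a peak in the same way. The count of 188 became 325 without Red Angus replicate 5 and 317 without F1 replicate 5.

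**Figure D3:**
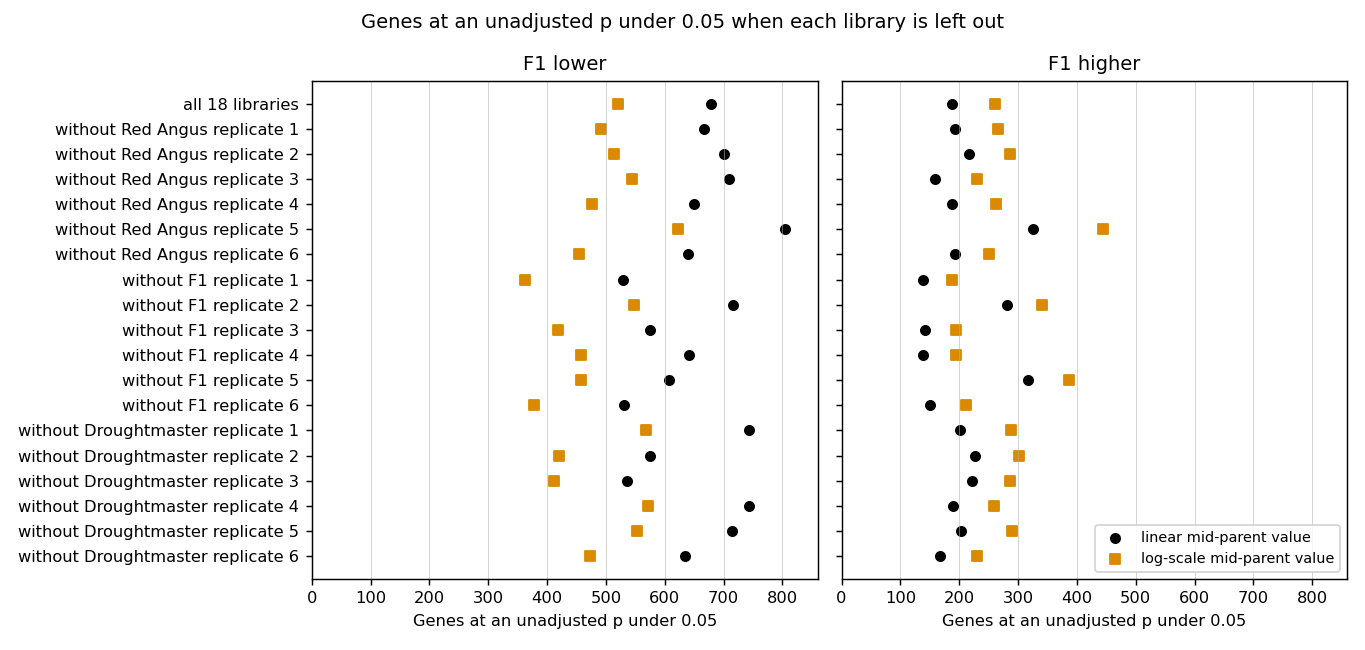
Number of genes at an unadjusted p under 0.05 against the linear (black circles) and log-scale (orange squares) mid-parent value, with the F1 lower (left) or higher (right), when all 18 libraries are used and when each is left out. The linear count with the F1 lower runs from 529 to 804 and with the F1 higher from 138 to 325, and the log-scale points lie left of the linear ones where the F1 is lower and right of them where it is higher.

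The genes of smallest p in each direction, chosen above an average of 5 CPM, are given as examples that did not pass. ENSBTAG00000019123 was low in the hybrids and in Red Angus. The F1 libraries held 1.87, 2.03, 1.90, 3.16, 3.38 and 3.47 CPM and the Red Angus libraries 2.22, 8.65, 1.86, 2.01, 2.60 and 3.37 CPM. The Droughtmaster libraries held 8.32, 100.4, 51.9, 4.47, 34.8 and 144 CPM. All 6 hybrids lay below every Droughtmaster library and within the Red Angus range, and the Droughtmaster libraries spread over more than an order of magnitude. The linear mid-parent value was 30.4 CPM and the log-scale value 14.1 CPM, and all 6 hybrids lay below both. The log2 ratio of the F1 to the linear value was -3.53 ± 0.59 (SE; quasi-likelihood test on edgeR's fit, adjusted p = 0.123), and to the log-scale value -2.42 (adjusted p = 0.437). The parents themselves differed in this gene (adjusted p = 0.00667 by edgeR). Without Droughtmaster replicate 4, which held the lowest Droughtmaster value, the adjusted p against the linear value was 0.0230. Over all 18 fits without 1 library it ran from 0.0230 to 0.439, the highest without F1 replicate 1, and it was 0.219 without Droughtmaster replicate 3.

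ENSBTAG00000008182 had the same order of groups. Its mean was 9.57 ± 4.38 CPM over F1 libraries, 19.1 ± 14.9 over Red Angus and 122 ± 82.3 over Droughtmaster libraries (± SD, n = 6 for each). The F1 libraries ran from 5.47 to 17.8 CPM around a median of 8.34, the Red Angus libraries from 6.15 to 45.0 around 14.9 and the Droughtmaster libraries from 31.0 to 234 around 133. The F1 and Red Angus overlapped, and no F1 library reached a Droughtmaster library. The log2 ratio was -2.88 ± 0.49 against the linear value of 70.7 CPM (adjusted p = 0.123 by the test on edgeR's fit) and -2.34 against the log-scale value of 48.3 CPM (adjusted p = 0.384). Without Droughtmaster replicate 4 the adjusted p against the linear value was 0.0347. It lay between there and 0.439 over the fits without 1 library, again highest without F1 replicate 1, and at 0.219 without Droughtmaster replicate 3.

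In the other direction, ENSBTAG00000004297 was higher in every hybrid than in any parent. The F1 libraries held 12.6, 15.2, 10.2, 10.6, 9.73 and 8.63 CPM. Red Angus libraries ran from 5.13 to 7.998 CPM around a median of 5.95 and Droughtmaster libraries from 3.47 to 7.75 around 4.61. The parental means were 6.27 ± 1.15 CPM for Red Angus and 5.09 ± 1.79 for Droughtmaster (± SD, n = 6 for each; adjusted p = 0.553 for their difference by edgeR), and the linear value of 5.68 CPM and the log-scale value of 5.65 CPM nearly coincided. The log2 ratio of the F1 was 0.97 ± 0.23 against the first (adjusted p = 0.171) and 0.98 against the second (adjusted p = 0.394, both by tests on edgeR's fit). ENSBTAG00000016223 had a mean of 11.2 ± 3.05 CPM over F1 libraries, 6.44 ± 3.18 over Red Angus and 3.66 ± 1.19 over Droughtmaster libraries (± SD, n = 6 for each). Its F1 libraries, from 9.12 to 17.4 CPM around a median of 10.1, lay above all Droughtmaster libraries (2.65 to 5.47 CPM, median 3.17) and overlapped Red Angus (3.91 to 11.8 CPM, median 4.90). The log2 ratio was 1.15 ± 0.28 against the linear value (adjusted p = 0.182) and 1.21 against the log-scale value (adjusted p = 0.384).

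**Figure D4:**
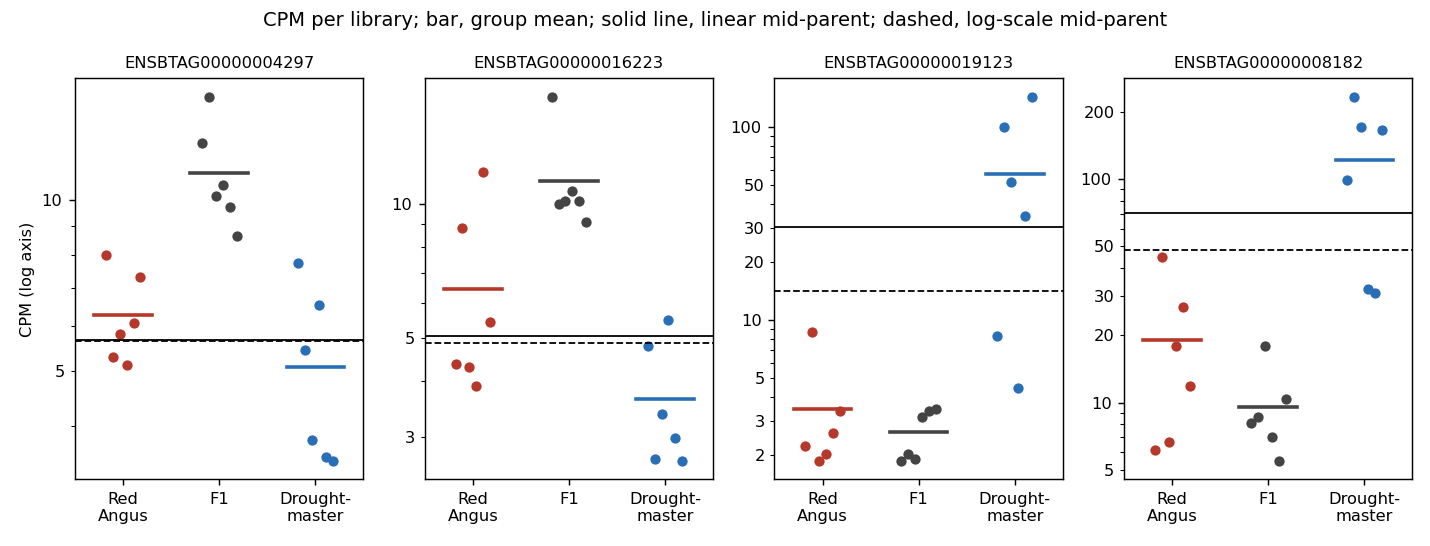
CPM in each library (points, log axis) for the 2 genes of smallest p in each direction averaging at least 5 CPM, by group. The group mean is a bar, the linear mid-parent value a solid line and the log-scale value a dashed line. All 6 F1 points lie above both lines for ENSBTAG00000004297 and ENSBTAG00000016223 and below both for ENSBTAG00000019123 and ENSBTAG00000008182, and the lines lie farthest apart in the last pair, where the parents differ most.

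Full separation of the hybrids from both parents was rare. In 2 of 13439 genes (0.0149%) all 6 F1 libraries lay above all 12 parental libraries, and in 0 genes (0%) did all 6 lie below. The first was ENSBTAG00000004297. The second, ENSBTAG00000014564, is named here because of that count and was chosen after its values were seen. Its F1 libraries held 15.8, 15.7, 13.4, 14.8, 15.0 and 13.2 CPM. Red Angus libraries were tightly grouped at 12.1 ± 0.35 CPM and Droughtmaster libraries were at 10.3 ± 2.08 (SD, n = 6 each), with a highest parental library of 12.7 CPM. The separation was complete but small, with a log2 ratio to the linear value of 0.39 ± 0.17 (adjusted p = 0.653 by the test on edgeR's fit).

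Loci without an Ensembl identifier, a class of 1007 tested rows kept out of the counts above, were also mostly below the mid-parent value with all 18 libraries. The F1 was below the linear value in 647 of them (64.3%) and below the log-scale value in 615 (61.1%), with median log2 ratios of -0.17 and -0.12. The test on edgeR's fit called 0 of them (0%), with 86 lower (8.54%) and 9 higher (0.894%) at an unadjusted p under 0.05, 9.43% in all. Whether these shares differ from those of the Ensembl rows was not tested, and they are not given without Droughtmaster replicate 3. The locus of smallest p lies on chromosome 18 (63189939 to 63196970, plus strand, ARS-UCD1.2; nearby gene models were not analysed here). Its mean was 4.82 ± 2.14 CPM over F1 libraries, 6.72 ± 2.62 over Red Angus and 23.2 ± 9.70 over Droughtmaster libraries (± SD, n = 6 for each). The F1 libraries, from 1.83 to 7.23 CPM, overlapped Red Angus (4.52 to 11.4 CPM) and all 6 lay below every Droughtmaster library (14.2 to 39.4 CPM). The log2 ratio was -1.64 ± 0.32 against the linear value (adjusted p = 0.123 by the test on edgeR's fit) and -1.38 against the log-scale value (adjusted p = 0.394). Without Droughtmaster replicate 3 the ratio to the linear value was -1.71 (adjusted p = 0.219 by the test on edgeR's fit).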

How the data were processed

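Leukocyte mRNA of 18 cattle libraries was counted per gene. The authors deposited raw counts, and the submitters' processing notes name the build ARS-UCD1.2 and the tools HISAT2 (2.0.5), DESeq2 (1.16.1) and featureCounts (1.5.0-p3). Whether counting used strand is not given in the sources used here. Overlapping antisense genes therefore cannot be told apart, and near-identical copies were not assessed. The locus lengths in the other table are deposited values and were not used in any test.

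Counts were filtered with filterByExpr by group (14446 features left, 13439 with an Ensembl identifier), scaled by TMM and fitted with edgeR 4.0.16 in R 4.3.3 (1 mean per group, 18 libraries, robust quasi-likelihood, legacy residual degrees of freedom). The linear null was refitted per gene by constrained maximum likelihood with the same dispersions, and its likelihood ratio was divided by edgeR's moderated quasi-dispersion, giving an F test. The test was checked on simulated data. Group means are fitted means in CPM of TMM-scaled libraries. All p-values are two-sided. Adjusted p-values are over the 14446 features of the main fit or, in a refit, over the features of that refit. DESeq2 used its own adjustment, which left 107 Ensembl rows without an adjusted p. Standard errors and 95% intervals are from the delta method. No 2 libraries of a group agreed as closely as repeat sequencing of 1 library would: their chi-square, divided by its degrees of freedom, was at least 64.8 for features averaging 10 counts or more. limma 3.58.1 and DESeq2 1.42.0 served as alternatives.

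Groups come from the breed labels. The genes named are the 2 of smallest p in each direction with a mean of at least 5 CPM, as the rule states for identifiers without symbols; the 23 gene lists and cell type markers written down for this work could not be used. The comparison, its members and the lists were chosen with earlier results of these data known.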

Additional observations from a re-analysis of the deposited data

Results flagged for a closer look

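In ENSBTAG00000016223, F1 replicate 1 measured 17.4 CPM and stood apart from the other 5 hybrids, by a gap of 0.758 of the group's whole range on the log2 scale, above the critical value of Dixon's test for 6 samples. F1 replicate 2 stood apart in its median log-scale position among the genes called between the parents, at -1.17 (gap 0.705 of the range), and in its number of genes at least 2-fold below the linear mid-parent value, 2121 (gap 0.657). Chance flags about 1 in 20 groups.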

How the results depend on the processing

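The count of 0 genes against the linear mid-parent value held with DESeq2's size factors, with library sizes without the most abundant feature of Droughtmaster replicate 3, with no filter on low counts, with Ensembl rows alone in the fit, at an adjusted p under 0.01, with limma, and with edgeR's bias-adjusted quasi-likelihood, an alternative chosen after seeing the data, as was limma-trend. It was 4 by the Wald test and between 0 and 16 when each library was left out. Against the log-scale value it was 48 by DESeq2 and 0 under all other alternatives run. Genes differing between the parents numbered 212 with no filter, 563 with the bias-adjusted method, 29 at an adjusted p under 0.01 and between 132 and 1316 when each library was left out. The position of the F1 ran from -0.81 to -0.14 (linear) and -0.69 to -0.15 (log scale) over the left-out libraries. The number of genes whose mid-parent values lay over 1.5-fold apart was 2770 with no filter, where low counts enter, and between 110 and 214 with each parental library left out. With no filter, the unadjusted counts against the linear value were 1103 with the F1 lower and 468 higher, and 795 higher against the log-scale value. Over the left-out libraries the unadjusted counts ran from 529 to 804 (lower) and 138 to 325 (higher) against the linear value, and from 363 to 622 and 187 to 444 against the log-scale value. The cause of these differences was not tested. None of the 4 genes chosen by smallest p within each direction turned its direction under the alternatives run on them. The call of 2 of them changed, both without Droughtmaster replicate 4 (adjusted p = 0.0230 and 0.0347 by the test on edgeR's fit). No paired analysis was possible because the labels give each library its own identifier and no replicate number shared between groups. In 42.2% of genes the 95% interval of the ratio to the linear value reached beyond 2-fold, which bounds what depth and the spread between libraries could show.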
